A study of Mus musculus with 192 samples.

Results

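The comparison was between colony-forming units-erythroid (CFU-E) and those cells of the burst-forming unit-erythroid (BFU-E) plate that carried erythroid transcripts. Cells were kept when they held at least 100000 counts and 2000 genes with a count, and when the counts per 1000000 (CPM) of Gata1, Klf1, Epor and Mfsd2b summed to at least 100. This left 142 of 191 cells, 86 from the CFU-E plate and 56 from the BFU-E plate, and all genes other than these 4 were compared. Cells were thus selected on the measured levels of these 4 genes. Both groups were single fetal liver cells of C57/Bl6J mice, taken at embryonic day 14.5, with no treatment named. Lysis removed red cells, and magnetic beads removed cells bearing CD41, CD16/32, Sca-1, Ter119, CD11b, Ly-6G, CD45R or CD3e. The remainder was stained with propidium iodide and antibodies to CD24, CD71 and CD117 and sorted, 1 cell to a well, for full-length SmartSeq2 sequencing. The sources used here do not give the gates of each sort or the number of animals.

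Red cells descend from BFU-E, the first progenitors restricted to the erythroid lineage, through CFU-E, which depend on erythropoietin. Glucocorticoids and stem cell factor, acting through the receptor KIT, support the division of BFU-E, while CFU-E and their daughters divide a limited number of times and start to make hemoglobin, heme and the red cell membrane skeleton. GATA1 and KLF1 are the transcription factors that switch on most erythroid genes, and EPOR is the receptor for erythropoietin. The fetal liver is the main site of this process in the mid-gestation mouse.

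The rule left out 36 cells of the BFU-E plate and 3 of the CFU-E plate that passed the count and gene minimum, while 4 and 6 other cells failed that minimum. The 4-gene sum chose the cells, so the levels of these genes are given only as a description. In CFU-E and kept BFU-E cells, Gata1 stood at 452 and 328 CPM, Klf1 at 459 and 168 CPM, Epor at 407 and 123 CPM, and Mfsd2b, a sphingosine 1-phosphate exporter, at 341 and 691 CPM. Just outside the minimum lay BFU-E-plate cells with sums of 30.2, 31.9 and 42.7 CPM, and just inside lay 4 cells with sums of 100.2, 116, 151 and 175 CPM. The next BFU-E cell stood at 594 CPM and the lowest kept CFU-E cell at 794 CPM. Of the 4 cells near the minimum, cells 54, 12 and 91 carried transcripts of other progenitors. BFU-E cells 54 and 12 held Mpo, the myeloperoxidase of granulocytes and monocytes, at 5870 and 5400 CPM, and cell 91 held Cd34, a surface glycoprotein of early progenitors, at 1730 CPM. Cell 74, the shallowest kept BFU-E cell, held Car1, a carbonic anhydrase, at 1050 CPM, with Mpo at 10 CPM and Cd34 at 120 CPM. Where leaving these 4 cells out moved the BFU-E level of a gene named below by over 1.5 times, the level without them is given beside it.

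**Figure D1:**
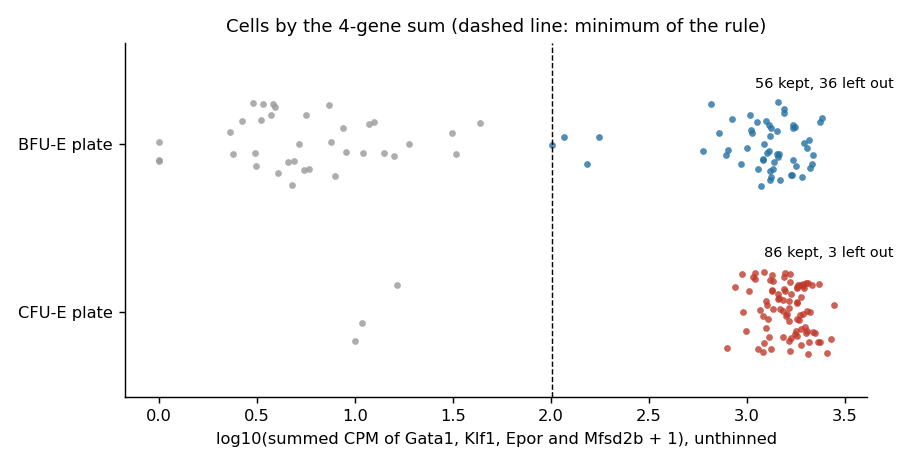
Each point is a cell that passed the count and gene minimum, placed by log10 of its summed unthinned CPM of the 4 rule genes plus 1, with the CFU-E plate below and the BFU-E plate above. The dashed line is the minimum of 100 CPM, and the 4 BFU-E cells just right of it lie between the 36 left-out and the 52 other kept cells.

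Kept CFU-E cells held a median of 1011600 counts (131891 to 2992100) and kept BFU-E cells a median of 1108990 (114288 to 3864040). Each cell was thinned to 100000 counts, at which 1 count is 10 CPM, and the cells of a group were then summed, so that a level below is the CPM of a summed group. Thinned CFU-E cells held a median of 5844.5 genes with a count and BFU-E cells 6170. The 50 most abundant genes of each cell took a median of 31.2% of counts in CFU-E cells (24.6 to 47.6%) and 19.4% in BFU-E cells (16.5 to 50.8%), and the part of this difference in the results was not tested. BFU-E cell 75 held the 50.8% and also the highest summed level of hepatocyte markers, 3480 CPM. Column names carry s_2 for BFU-E and s_3 for CFU-E cells, read here as lanes, so cell type, plate and lane cannot be told apart. The plates shared 95 index pairs. Each group is 1 sample, since no label ties cells to animals, and no p-value is given. The ranges in parentheses after a fold are exact 95% intervals of the summed counts. They cover counting error only, not the variation between cells or between samples. They also treat each count as independent, though reads copied by PCR were not marked by molecule.

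A gene was counted as measured when the mean of its levels in the 2 groups was at least 5 CPM, and folds were counted on log2(CPM + 1). Of 9162 measured genes, 523 stood 2-fold or more higher in CFU-E cells (5.71%) and 2842 stood 2-fold or more lower (31%), and 177 (1.93%) and 972 (10.6%) passed 4-fold. The median log2 fold was −0.55, and 26.5% of the genes were higher in CFU-E cells. That split depended on the scaling. With trimmed mean of M values (TMM) factors the split was 1323 higher and 1419 lower of 9052 measured genes, and the median 0.046. With median-of-ratios factors it was 1375 and 1378. List counts given below with TMM scaling stand against those 1323 and 1419 genes, not against 5.71% and 31%. The number of measured list members can also differ with the scaling. Each scaling moves genes near the 2-fold mark across it. The median log2 fold was −0.84 for protein-coding genes with transcripts of up to 1000 bases, −0.41 for those of 1000 to 2000 bases and −0.81 for those over 6000 bases. The part of transcript length in the results was not tested.

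**Figure D2:**
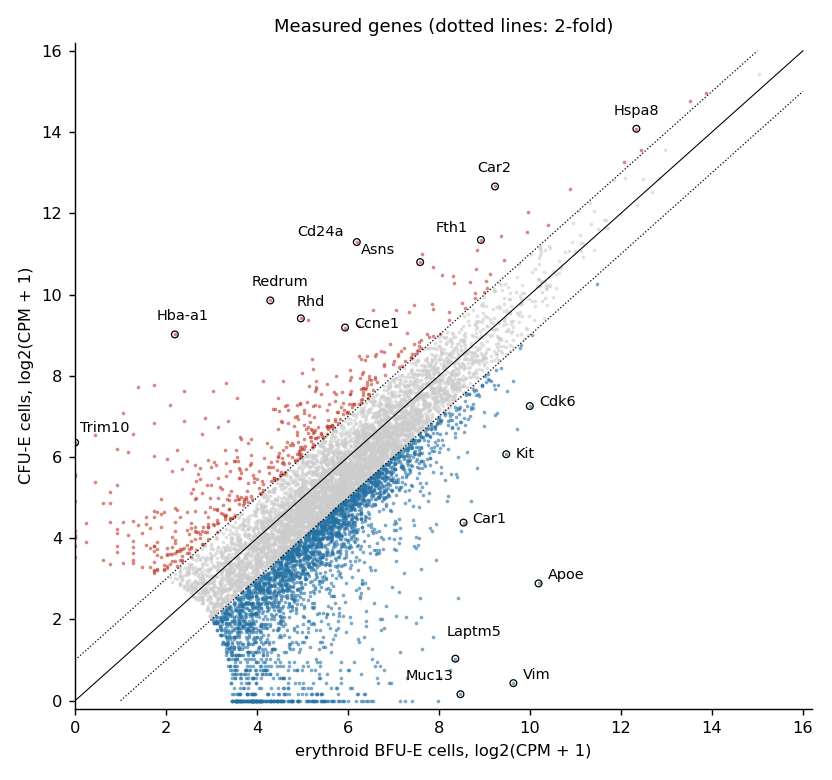
Each point is a measured gene, with its level in the 56 erythroid BFU-E cells on the horizontal axis and in the 86 CFU-E cells on the vertical axis, both as log2(CPM + 1). The solid line marks equal levels and the dotted lines 2-fold, with 523 genes in red above and 2842 in blue below them, and circled genes are named.

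For 7 of the 9162 measured genes (0.0764%) the ranges over single cells did not overlap at all. Car2, the main carbonic anhydrase of red cells, ran from 2250 through a median of 6125 to 18040 CPM in CFU-E cells and from 0 through 495 to 2190 CPM in BFU-E cells. Every CFU-E cell was above every BFU-E cell, and the summed level was 10.8-fold higher (10.4 to 11.2), at 6469.9 against 600 CPM. Alad, which makes the heme precursor porphobilinogen, ran from 740 through 1960 to 4400 CPM in CFU-E cells and from 0 through 160 to 620 CPM in BFU-E cells, 10.4-fold higher in sum (9.76 to 11.04). Fth1, the heavy chain of the iron store ferritin, lay between 1490 and 5220 CPM in CFU-E cells and between 170 and 1220 CPM in BFU-E cells. Oaz1, an antizyme that limits polyamine synthesis, lay between 1540 and 5300 CPM against 270 to 1450 CPM. Cd24a, a surface antigen used in the sort, lay between 810 and 6840 CPM against 0 to 510 CPM. The other 2 genes were the ones that set BFU-E cells apart. Laptm5, a lysosomal membrane protein of blood cells, lay between 60 and 1090 CPM in BFU-E cells and between 0 and 50 CPM in CFU-E cells. Apoe, the lipid carrier apolipoprotein E, had a BFU-E median of 1150 CPM (90 to 2810) and a CFU-E median of 0 (0 to 60), 182-fold lower (140 to 242). All 7 stay apart also when the 4 cells near the minimum are left out, since removing cells cannot widen a range.

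**Figure D3:**
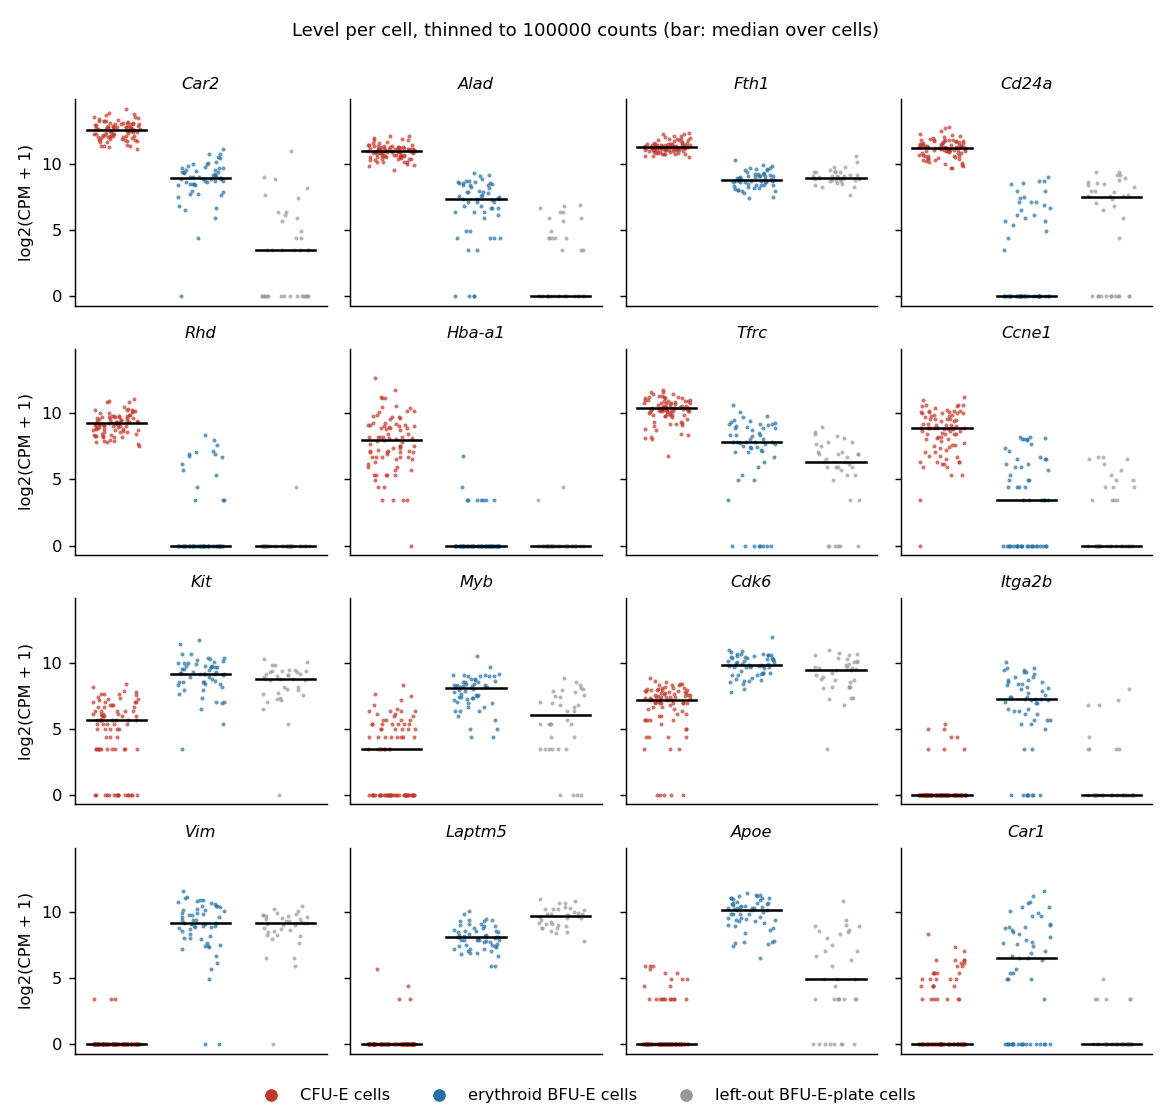
Each panel shows 1 gene and each point 1 cell thinned to 100000 counts, as log2(CPM + 1), for 86 CFU-E cells, 56 erythroid BFU-E cells and the 36 BFU-E-plate cells left out by the rule; the bar is the median over cells. Car2, Alad, Fth1, Cd24a, Laptm5 and Apoe show no overlap between the first and the second group.

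The 15 genes highest in CFU-E cells by size of change were Hba-a1, Trim10, Rgcc, Scd1, Slc39a8, Hbb-bt, Camsap2, Redrum, Trim2, Slc4a1, Tmem56, Cldn13, Epb42, Cd24a and Slc26a1. Rgcc, a regulator of cell cycle progression, had a count in all 86 CFU-E cells (20 through 170 to 600 CPM) and in 4 of 56 BFU-E cells (at most 50 CPM), 130-fold higher (68.2 to 284). Scd1, the desaturase that makes monounsaturated fatty acids, had a summed level of 91.4 CPM in CFU-E cells, and BFU-E cells held 2 counts in all, giving a ratio of 256 (70.6 to 2117). Camsap2, which caps microtubule minus ends, stood at 46.6 CPM, with a count in 70 CFU-E cells and none in BFU-E cells, at least 87-fold higher when the BFU-E sum is set to a floor of 3 counts. Trim10 and Trim2, members of the tripartite-motif family, were counted in 76 and 48 CFU-E cells but in no BFU-E cell, so that they were at least 151-fold and 84-fold higher. Slc39a8, an importer of zinc and manganese, had a CFU-E median of 130 CPM (0 to 1100) against at most 40 CPM in any BFU-E cell. The long noncoding RNA Redrum had a CFU-E median of 840 CPM (0 to 3130) and a count in 12 of 56 BFU-E cells (at most 220 CPM); the library kit does not mark strand, so reads of an overlapping gene cannot be told apart. In GRCm38, Rgcc (ENSMUSG00000022018) lies on chromosome 14 from 79288756 to 79301645, Scd1 (ENSMUSG00000037071) on chromosome 19 from 44394455 to 44407879 and Camsap2 (ENSMUSG00000041570) on chromosome 1 from 136268123 to 136346104. The table counts whole genes, and no exons or isoforms were resolved.

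The promoters of measured genes were searched for AGATAA, a form of the site bound by GATA factors, and CCACACCC, a form of the CACC box bound by KLF1. Each was sought on both strands (TTATCT and GGGTGTGG), in the 250 bases before the start in the RefSeq table of GRCm38.p6. The motifs do not overlap each other. AGATAA was in 18 of the 135 promoters in the table for genes 4-fold or more above BFU-E cells (13.3%), in 56 of 732 for genes at least 4-fold lower (7.65%), in 405 of 7098 for all measured genes (5.71%) and in 10.25% of all 27025 promoters of the table. CCACACCC was in 2.96%, 4.24%, 3.44% and 3.19% of the same sets. Of the 15 highest genes named above, 9 had a promoter in the table, of which 3 held AGATAA and 0 held CCACACCC. A match is a run of letters, not a site shown to be bound. Of the 18 promoters with AGATAA, 12 held no base of a GENCODE exon. Of these 12, 5 are shown, 5′ to 3′ in the direction of the gene, with the AGATAA or TTATCT match in capitals. Trim10, Rhd, Pklr and Fen1 are described in other paragraphs, and Mpp1 stood at 162 CPM in CFU-E cells against 33.2 CPM in BFU-E cells.
Trim10, chr17:36869324-36869573, plus strand: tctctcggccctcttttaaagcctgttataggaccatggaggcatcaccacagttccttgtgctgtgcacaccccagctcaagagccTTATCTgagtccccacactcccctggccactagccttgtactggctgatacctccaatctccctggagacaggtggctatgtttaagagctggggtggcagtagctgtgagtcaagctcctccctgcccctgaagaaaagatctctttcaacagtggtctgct
Rhd, chr4:134864286-134864535, plus strand: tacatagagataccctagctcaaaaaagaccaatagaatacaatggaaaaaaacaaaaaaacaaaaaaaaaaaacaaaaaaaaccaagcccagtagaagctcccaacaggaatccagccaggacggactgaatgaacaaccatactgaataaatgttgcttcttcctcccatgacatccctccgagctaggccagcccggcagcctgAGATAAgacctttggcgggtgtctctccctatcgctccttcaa
Pklr, chr3:89135892-89136141, plus strand: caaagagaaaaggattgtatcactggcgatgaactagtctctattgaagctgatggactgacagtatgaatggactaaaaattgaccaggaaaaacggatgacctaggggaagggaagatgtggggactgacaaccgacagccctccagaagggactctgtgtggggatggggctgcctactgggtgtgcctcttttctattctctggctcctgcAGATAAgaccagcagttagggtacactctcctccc
Fen1, chr19:10204394-10204643, minus strand: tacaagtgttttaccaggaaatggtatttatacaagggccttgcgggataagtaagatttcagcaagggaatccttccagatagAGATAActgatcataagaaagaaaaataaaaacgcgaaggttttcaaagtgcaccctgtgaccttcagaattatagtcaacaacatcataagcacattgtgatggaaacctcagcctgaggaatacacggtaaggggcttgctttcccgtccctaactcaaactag
Mpp1, chrX:75131017-75131266, minus strand: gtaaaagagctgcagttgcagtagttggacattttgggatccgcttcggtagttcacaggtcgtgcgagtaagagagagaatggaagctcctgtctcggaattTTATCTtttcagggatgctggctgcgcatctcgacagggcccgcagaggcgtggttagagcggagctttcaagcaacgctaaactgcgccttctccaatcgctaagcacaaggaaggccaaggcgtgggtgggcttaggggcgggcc
The match began 163 bases before the start in Trim10, 43 in Rhd, 35 in Pklr, 166 in Fen1 and 147 in Mpp1. The 5 genes differ in role, from a tripartite-motif protein through a blood group carrier, a glycolytic enzyme and a replication nuclease to a scaffold of the red cell membrane.

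Hemoglobin transcripts were found in nearly all CFU-E cells, at levels that differed widely from cell to cell. Hba-a1, an alpha chain, had a count in 85 of 86 CFU-E cells, from 0 through a median of 245 to 6480 CPM, and in 9 of 56 BFU-E cells, with at most 110 CPM. Its summed level was 517 against 3.57 CPM, and without the 4 BFU-E cells near the minimum the BFU-E level was 1.54 CPM. Of the globins in the table, 3 of 7 were measured and all 3 passed 2-fold upward, against 5.71% of all measured genes. Their median log2 fold was 6.03. The beta chains Hbb-bt and Hbb-bs stood at 134.5 and 117 CPM in CFU-E cells against 1.07 and 4.29 CPM. All Hbb-bs counts of BFU-E cells came from 1 cell, which was among the 4 near the minimum, so the gene has no count in the other 52. Hba-a1 and Hba-a2, and Hbb-bt and Hbb-bs, are near-identical copies whose reads may be split or dropped.

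Genes of heme synthesis were higher in CFU-E cells along nearly the whole pathway. Of 16 genes in the list, all measured, 12 stood 2-fold or more higher and 0 lower, against 5.71% and 31% of all measured genes. The median log2 fold was 2.18, and TMM scaling gave the same counts. The summed level per cell ran from 3230 through 6855 to 12230 CPM in CFU-E cells and from 370 through 1715 to 2760 CPM in BFU-E cells, so the groups did not overlap. Alad, whose own ranges did not overlap, made up 2048 of the summed 7106.9 CPM in CFU-E cells. Whether the sum separates the cells without Alad was not tested. Among the enzymes described, in pathway order, Alas2, the erythroid first step, stood at 30.6 against 5.36 CPM, Alad at 2048 against 197 CPM and Uros at 209 against 38.6 CPM. Urod, which follows Uros, stood at 208 against 189 CPM and was the 1 enzyme from Alad to Fech within 2-fold. Cpox, Ppox and Fech, the last steps, stood at 95.9, 182 and 1629 CPM against 33.6, 79.1 and 233 CPM. Alas1, the housekeeping counterpart of Alas2, stood at 24.2 against 35.7 CPM. Abcb10, Slc25a38, Tmem14c and Fam210b, mitochondrial proteins that support heme synthesis, were 2-fold or more higher, with Abcb10 5.28-fold higher (4.58 to 6.11).

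Of 19 measured iron genes 7 passed 2-fold upward and 3 downward, against 5.71% and 31% of all measured genes, and 9 were within 2-fold, with a median log2 fold of 0.51 (10 and 0 with TMM scaling, median 1.10). Tfrc, the transferrin receptor known as CD71, ran from 110 through 1325 to 3360 CPM in CFU-E cells and from 0 through 230 to 1550 CPM in BFU-E cells, 4.43-fold higher (4.21 to 4.66). Tfr2, the related receptor that senses iron-loaded transferrin, stood at 114 against 119 CPM. The ferritin chains Fth1 and Ftl1 stood at 2598 and 1445 CPM against 484 and 554 CPM. Slc40a1, the iron exporter ferroportin, was 4.25-fold higher (3.63 to 5.01), and Slc25a37, the mitochondrial importer mitoferrin, 2.66-fold (2.29 to 3.10). The 3 lower members were Hmox2, a heme oxygenase, at 30.5 against 80 CPM, Ncoa4, the receptor that delivers ferritin for breakdown, at 64.2 against 153 CPM, and Ireb2, which controls iron mRNAs by binding them, at 35.3 against 82.3 CPM. With TMM scaling no member was at least 2-fold lower. Summed over the list, every CFU-E cell (4780 to 14480 CPM) stood above every BFU-E cell (1750 to 4410 CPM). Fth1, whose own ranges did not overlap, made up 2598 of the summed 7251.5 CPM in CFU-E cells, and Ftl1 made up 1445 CPM. Whether the sum separates the cells without Fth1 was not tested.

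Of 28 measured red cell membrane genes, 19 stood 2-fold or more higher in CFU-E cells and 2 lower (24 and 1 with TMM scaling). The shares over all measured genes were 5.71% and 31%, and the median log2 fold of the list was 1.73. The list sum lay between 6400 and 28540 CPM in CFU-E cells and between 820 and 6180 CPM in BFU-E cells, again without overlap. The list also held the carbonic anhydrases Car1 and Car2. Car2 alone made up 6469.9 of the summed 12721 CPM in CFU-E cells, and its own ranges did not overlap. Whether the sum separates the cells without Car2 was not tested. Rhd and Rhag, the carriers of the Rhesus blood group complex, stood at 681 and 664 CPM against 30.2 and 33.9 CPM. Rhd had a count in all 86 CFU-E cells, at 180 to 2110 CPM, and in 16 of 56 BFU-E cells, with at most 320 CPM. Slc4a1, the anion exchanger band 3, stood at 72.8 against 0.893 CPM, but its CFU-E median was 10 CPM and its highest cell 1320 CPM. Epb42, which links band 3 to the skeleton, was 48.1-fold higher (30.3 to 81.5), with a CFU-E median of 140 CPM (0 to 590). Kel, the Kell blood group protein, stood at 274 against 78.9 CPM. Epb41, Ermap, Cd47, Aqp1 and Slc14a1 were all within 2-fold. The 2 lower members were Car1, at 19.9 against 371 CPM, and Slc2a1, the glucose transporter GLUT1, at 27.1 against 67.7 CPM, and only Car1 was at least 2-fold lower with TMM scaling.

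Several of these genes have a close relative, in most cases one used by other cells, and 25 pairs were set side by side. In 7 of the 25 pairs the first member was at least 2-fold lower and the second, the form of red cells, 2-fold or more higher. Of all measured genes 31% were lower and 5.71% higher. The set depended on the scaling: with TMM factors Add3 was within 2-fold (log2 fold −0.83). The pairs Epb41l2 and Epb41 (−1.18 and 1.08), Ccnd2 and Ccnd3 (−1.04 and 1.08) and Cdk6 and Cdk4 (−2.15 and 1.55) then passed both marks. In 1 of the 7, Car1 and Car2, the first member is itself a red cell gene and stood at 2.22 CPM in the left-out cells of the BFU-E plate. Sptbn1, a beta spectrin of most cells, stood at 2.33 CPM in CFU-E cells against 104 CPM in BFU-E cells, while the erythroid beta chain Sptb stood at 175 against 20.9 CPM. Ank3 stood at 0.233 against 11.25 CPM while the erythroid ankyrin Ank1 stood at 154 against 28.6 CPM, but 68.3% of the Ank3 counts in BFU-E cells came from 1 cell. The actin cap Tmod3 stood at 47.8 against 265 CPM and the erythroid form Tmod1 at 86.3 against 11.6 CPM. Add3 and Add2, adducins of the spectrin-actin junction, stood at 52.6 against 142 CPM and at 358 against 74.3 CPM. The carbonic anhydrases Car1 and Car2 have been given above. Pkm and Pklr, the general and the red cell pyruvate kinase, stood at 195 against 719 CPM and at 285 against 36.8 CPM. Without TMM scaling the other pairs did not show this. Bcl2 and Bcl2l1, survival factors of which the second is the erythroid one, were both lower, at 1.86 against 12.7 CPM and 19.3 against 44.1 CPM. Nfe2l2 and Nfe2, CNC transcription factors, stood at 230.5 against 174 CPM and at 60.1 against 156 CPM, so here the erythroid member was the lower one. Tet2 and Tet3, demethylases, were both lower. Eno1 stood at 917 against 1050.2 CPM, and its muscle relative Eno3 was below the measured minimum.

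**Figure D4:**
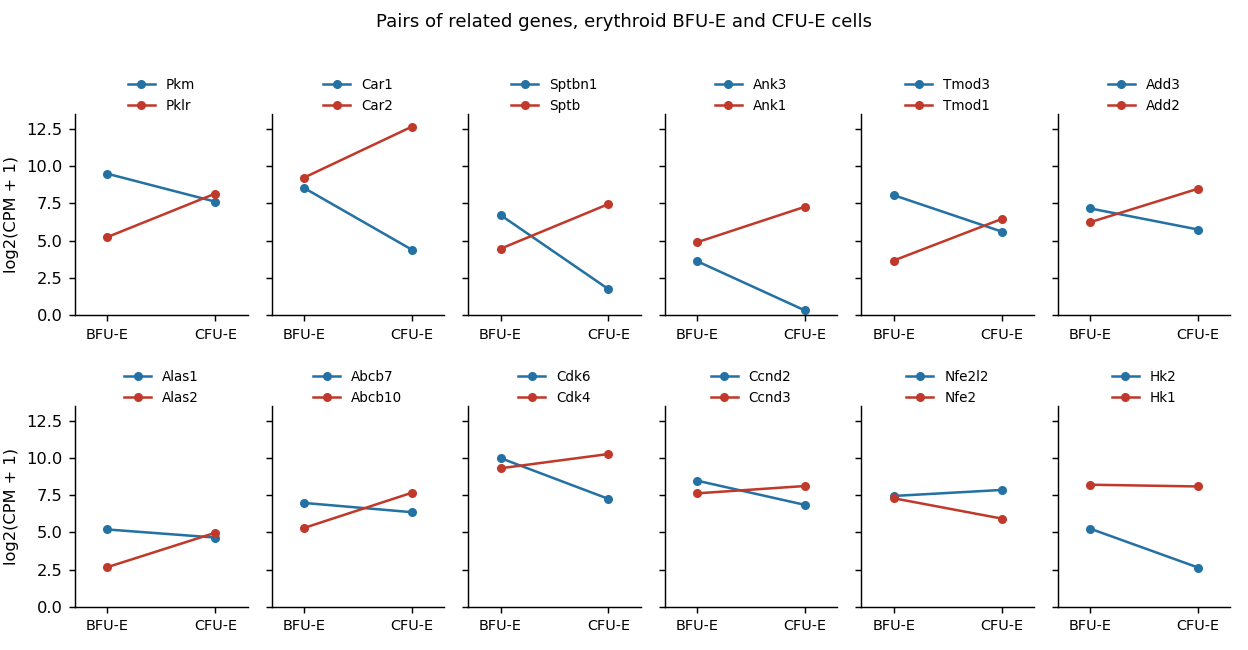
Each panel joins the summed level in erythroid BFU-E cells to that in CFU-E cells, as log2(CPM + 1), for the first member of a pair in blue and the second, in most pairs the erythroid form, in red. The lines cross or diverge for Pkm and Pklr, the beta spectrins, ankyrins, tropomodulins, adducins and carbonic anhydrases, while Hk1 is nearly level and Hk2 is lower in CFU-E cells; heights of different genes are not comparable, since CPM is not per length.

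The list of erythroid transcription factors other than the rule genes differed little as a group. Of 24 members 4 (Sox6, E2f4, Klf3 and Trim10) were at least 2-fold higher and 5 lower, against 5.71% and 31% of all measured genes. Trim10 and another member, Trim58, are tripartite-motif proteins and not transcription factors. The median log2 fold was −0.29 (10 higher, 3 lower and a median of 0.29 with TMM scaling, so the sign of the median flips). Summed levels per cell overlapped, at 860 to 3340 CPM in CFU-E and 800 to 3060 CPM in BFU-E cells. Tal1, Lmo2, Ldb1, Lyl1 and Zfpm1, the partners of GATA1, were all within 2-fold. Gfi1b and Ikzf1, repressors of early erythroid cells, stood at 284 against 181 CPM and 422 against 256 CPM. Sox6, which acts on globin genes, stood at 49.2 against 3.39 CPM, 14.5-fold higher (9.17 to 24.3), and E2f4 and Klf3 were 3.36-fold (2.79 to 4.07) and 2.23-fold higher (1.94 to 2.57). Myb, a factor that holds progenitors in division, had a BFU-E median of 265 CPM (20 to 1460) and a CFU-E median of 10 CPM (0 to 320), 9.87-fold lower (8.63 to 11.3). Klf13 stood at 6.51 against 48.2 CPM, Cbfa2t3, a corepressor in the GATA1 complex, at 15.3 against 66.2 CPM, and Foxo3 at 20.9 against 48.9 CPM.

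Transcripts of stem and multipotent progenitors were present in erythroid BFU-E cells and rare in CFU-E cells. Of 23 measured members of 30, 0 were at least 2-fold higher and 21 lower, against a background of 31% of measured genes lower, with a median log2 fold of −4.76, or −6.22 with genes under the floor set to it. Muc13, a transmembrane mucin, had a count in 53 of 56 BFU-E cells (median 250, highest 1820 CPM), while the CFU-E cells together held 1 count, for a ratio of 3044 (546 to 120280). Meis1, a homeobox factor of stem cells, stood at 260 CPM against a count of 4 in CFU-E cells, 560-fold lower (218 to 2057). Fli1, an ETS factor, and Slamf1, a surface receptor, were not counted in any CFU-E cell, which makes them at least 246-fold and 131-fold lower. Gata2, the GATA factor that precedes GATA1, stood at 0.233 against 53.4 CPM, and Angpt1, a ligand of the receptor TEK, at 0.116 against 80.9 CPM. Runx1 stood at 27.7 against 112 CPM. Nfe2l2 and Egfl7 were the 2 members within 2-fold. Some of this list rested on the 4 cells near the minimum, without which Cd34 went from 97.9 to 14.6 CPM and the receptor Flt3 from 26.1 to 0.962 CPM in BFU-E cells. Without those 4 cells 17 of 19 measured members were lower, with a median of −4.38. Muc13, Meis1, Fli1, Gata2, Slamf1 and Angpt1 were not among the genes that moved by over 1.5 times.

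The 15 genes lowest in CFU-E cells included Vim, Muc13, Mpo, Meis1, Celf2, Laptm5, Apoe, Ptprc, Coro1a, Slc22a3, Myo1g, Dok2, Itgal and Fli1. Vim, the intermediate filament vimentin, led them. It had a count in 54 of 56 BFU-E cells, with a median of 560 and a highest value of 3010 CPM, and 3 counts in 3 of 86 CFU-E cells, a ratio of 2277 (779 to 11045). Ptprc, the leukocyte antigen CD45, had a count in 41 BFU-E cells (at most 960 CPM) and none in CFU-E cells, at least 403-fold lower. Celf2, an RNA-binding splicing regulator, stood at 0.698 against 299.6 CPM, with a count in 55 BFU-E and 4 CFU-E cells. Slc22a3, an organic cation transporter, and Dok2, an adaptor of tyrosine kinases, had BFU-E levels of 92.5 and 89.3 CPM and were not counted in any CFU-E cell. Vim (ENSMUSG00000026728) lies on chromosome 2 from 13573927 to 13582826, Celf2 (ENSMUSG00000002107) on chromosome 2 from 6539694 to 7509563 and Ptprc (ENSMUSG00000026395) on chromosome 1 from 138062861 to 138175708.

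Of leukocyte adhesion and surface genes, 19 of 26 measured members were at least 2-fold lower and 2 higher, against 31% and 5.71% of all measured genes, with a median log2 fold of −3.94 (−5.07 at the floor). Coro1a, an actin regulator of blood cells, stood at 0.465 against 156 CPM, Itgal, an integrin chain of leukocytes, at 0.349 against 118 CPM and Arhgdib, an inhibitor of small GTPases, at 4.77 against 342 CPM. Cd48 stood at 0.814 against 103 CPM and Lcp1, the actin bundler plastin, at 2.79 against 180 CPM, or 113 CPM without the 4 cells near the minimum. Itga4, Itgb1, Cd44 and Cd164, adhesion molecules of erythroid progenitors too, were within 2-fold. The 2 higher members were Cd24a and the tetraspanin Cd82, at 57.7 against 7.32 CPM. The list sum per cell did not separate the groups, at a median of 3290 CPM in CFU-E and 3045 CPM in BFU-E cells. Cd24a made up 2505 of the summed 3436 CPM in CFU-E cells.

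The summed level of megakaryocyte markers was 541 CPM in erythroid BFU-E cells and 27.3 CPM in CFU-E cells. Of 7 measured markers of 12, 5 were at least 2-fold lower in CFU-E cells and 0 higher, against 31% of all measured genes lower. Their sum per cell was 0 through 325 to 4520 CPM in BFU-E cells, 0 through 20 to 130 CPM in CFU-E cells and 0 through 45 to 690 CPM in the left-out cells of the BFU-E plate. Itga2b, which encodes the CD41 that the beads targeted, was 118-fold lower (73.3 to 203) in CFU-E cells, at 1.98 against 233 CPM, and stood at 18.6 CPM in the left-out cells. Thbs1, thrombospondin, was not counted in any CFU-E cell and stood at 58.04 CPM in BFU-E cells, of which 65.8% came from 1 cell. Gp5 and Treml1, platelet surface proteins, stood at 24.8 and 24.5 CPM against 0.698 and 0.349 CPM. Pf4, Ppbp and Selp, which define platelets, had no count in either group.

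Among the antigens of the sort, Kit, the receptor CD117, ran from 10 through 570 to 3400 CPM in BFU-E cells and from 0 through 50 to 330 CPM in CFU-E cells, 10.8-fold lower (9.87 to 11.8), and 44 of 56 BFU-E cells lay above the highest CFU-E cell. Tfrc and Cd24a were higher, as given above. Since the cells were stained for these 3 proteins, the part of the gates in these differences was not tested.

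Of 18 measured cytokine receptor and signalling genes other than Epor, 11 were at least 2-fold lower in CFU-E cells and 0 higher, against a background of 31% lower. The median log2 fold was −1.27. With TMM scaling 6 of 17 measured genes were lower and 1 higher. Il2rg, the common gamma chain, stood at 3.14 against 45 CPM, Igf1r, the receptor for insulin-like growth factor 1, at 38.8 against 167 CPM and Ifngr1, an interferon gamma receptor chain, at 110 against 379 CPM. Stat5a, which carries the erythropoietin signal, was 2.42-fold lower (2.22 to 2.65), while Stat5b and Jak1 were within 2-fold and Jak2 stood at 22.3 against 39.3 CPM. Genes of the glucocorticoid and transforming growth factor beta (TGF-beta) response, which act on BFU-E renewal, were lower in 9 of 12 measured cases and higher in 0, against the same background of 31%, with a median of −1.86 (6 of 13 lower and 1 higher with TMM scaling). Nr3c1, the glucocorticoid receptor, stood at 54.4 against 158 CPM and its target Tsc22d3 at 3.72 against 28.04 CPM. Tgfbr3, a coreceptor for TGF-beta, stood at 37.4 against 196 CPM and at 6.39 CPM in the left-out cells, and Tgfbr2 at 0.814 against 18.9 CPM. Tgfbr1, Smad2 and Smad3 were within 2-fold.

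Cell cycle genes differed in a few G1 regulators and S phase genes, while most replication and mitosis genes were within 2-fold. Among 21 measured G1 regulators 4 were at least 2-fold higher and 7 lower, a lower share near the 31% of all measured genes (6 and 4 with TMM scaling). Cdk6, a kinase of early progenitors, ran from 220 through 895 to 3800 CPM in BFU-E cells and from 0 through 145 to 460 CPM in CFU-E cells, 6.73-fold lower (6.33 to 7.15), while its relative Cdk4 stood at 1235 against 635 CPM. Ccnd2 stood at 114 against 356 CPM and Ccnd3, the D cyclin that erythroid cells depend on, at 277 against 197 CPM. Ccne1, the cyclin E that starts DNA replication, had a CFU-E median of 460 CPM (0 to 2380) and a BFU-E median of 10 CPM (0 to 300), 9.67-fold higher (8.66 to 10.8), and Ccne2 was 2.47-fold higher (2.23 to 2.75). Btg2, an antiproliferative gene, stood at 51.05 against 4.11 CPM and Btg1 at 1.16 against 10.9 CPM. Of 36 S phase genes 4 were higher (Rrm2, Fen1, Rpa2 and Slbp) and 1 lower (Gins1), against 5.71% and 31% of all measured genes. Their median log2 fold was 0.14, and with TMM scaling 10 were higher, 0 lower and the median 0.73. Rrm2, the regulatory chain of ribonucleotide reductase, stood at 2175 against 455 CPM, and Fen1, the flap endonuclease, at 212 against 34.5 CPM. The helicase genes Mcm2 to Mcm7 were within 2-fold. Of 32 mitosis genes 28 were within 2-fold, with a median of −0.11 that turns to 0.48 with TMM scaling. Ccna2, cyclin A2, stood at 1252 against 320 CPM and Kif23 at 106 against 47.3 CPM, while Kif20b and Ttk were the 2 lower ones.

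**Figure D5:**
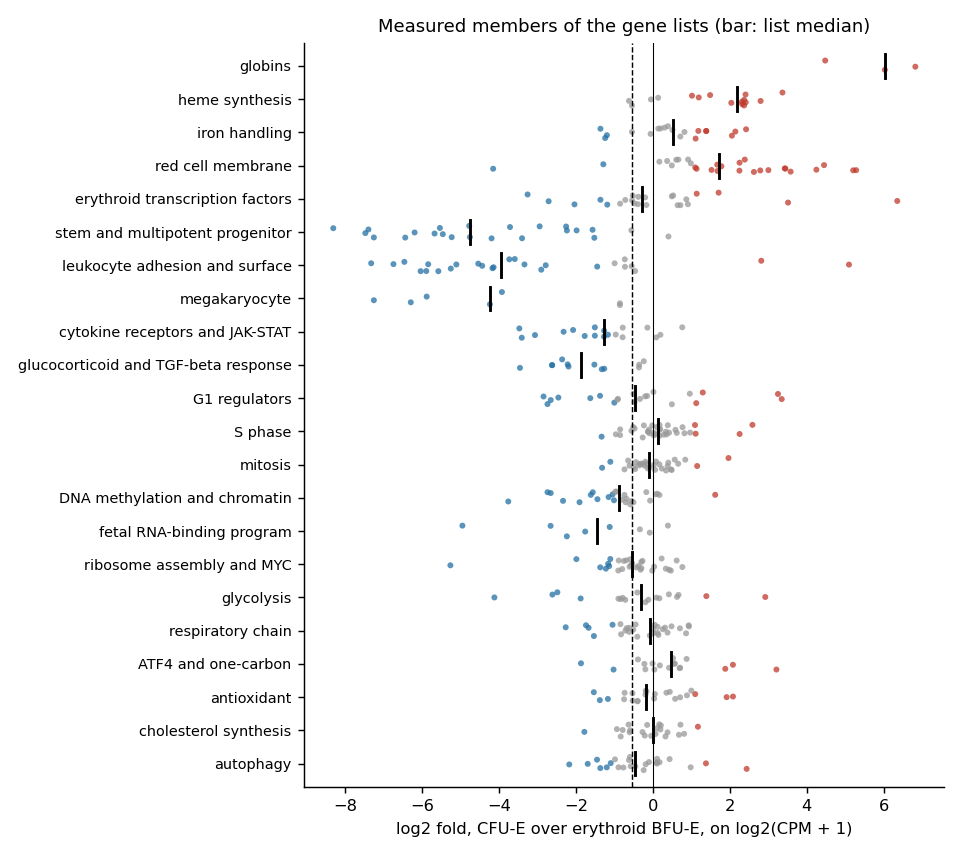
Each point is a measured gene of a list, placed by its log2 fold of CFU-E over erythroid BFU-E cells, in red where at least 2-fold higher, in blue where at least 2-fold lower and in grey between. Black bars are list medians and the dashed line is the median of all measured genes, −0.55; the medians of heme synthesis (2.18) and red cell membrane genes (1.73) lie to its right and those of stem (−4.76), leukocyte (−3.94) and megakaryocyte genes (−4.24) to its left, with single members on the other side.

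Of 26 measured genes of DNA methylation and chromatin 11 were at least 2-fold lower, 1 higher and 14 within 2-fold, against 31% of all measured genes lower, with a median log2 fold of −0.88 (6 and 1 with TMM scaling). The list sum per cell had a median of 5430 CPM in CFU-E and 5600 CPM in BFU-E cells. The de novo methyltransferases Dnmt3a and Dnmt3b were 7.10-fold (5.81 to 8.73) and 6.59-fold lower (5.56 to 7.85), while the maintenance enzyme Dnmt1 stood at 376 against 606 CPM. All 3 TET demethylases were lower, Tet1 at 0.930 against 25.2 CPM, Tet2 at 13.49 against 53.4 CPM and Tet3 at 34.3 against 103 CPM. The higher one was Hmgb3, a chromatin protein, at 1262 against 410 CPM. In the fetal RNA-binding program 5 of 8 measured genes were lower, against 31% of all measured genes (4 with TMM scaling). Igf2bp2 had no count in CFU-E cells against 30 CPM in BFU-E cells and Igf2bp3 stood at 24.8 against 120.5 CPM, whereas Igf2bp1 stood at 182 against 139 CPM and Lin28b at 89.5 against 114 CPM.

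Growth and energy genes differed in a few members each. Of 30 measured genes of ribosome assembly and MYC 7 were lower and 0 higher, a lower share below the background of 31% (2 and 3 with TMM scaling), among them Myc at 280 against 605 CPM and Mycn, which had no count in CFU-E cells against 37.5 CPM. Ncl and Npm1, nucleolar proteins, stood at 3183 against 3221 CPM and at 7458.5 against 4387 CPM. In glycolysis 2 of 18 measured genes were higher, Pklr and Bpgm, the mutase that makes the hemoglobin ligand 2,3-bisphosphoglycerate, at 85.3 against 32.0 CPM. The 4 lower ones were the isozymes Hk2, Pfkp, Pkm and Pfkfb3, and Hk2 stood at 5.23 against 37.1 CPM, or 24.4 CPM without the 4 cells near the minimum, while Hk1 stood at 272 against 295 CPM. The share of lower glycolysis genes was also below the background of 31%. With TMM scaling 5 glycolysis genes were higher and 4 lower. Of 29 respiratory chain genes 5 were lower and 0 higher (3 and 5 with TMM scaling), again a lower share below 31%. The 5 were Uqcrb, Cox6c, Cox7a2 and Cox7b and, in complex II, Sdha, at 509 against 1056 CPM. Uqcrb stood at 18.02 against 59.6 CPM, or 37.5 CPM without those 4 cells. Atp5b, a catalytic chain of ATP synthase, stood at 4910.3 against 2567 CPM. Asns, the asparagine synthetase induced by ATF4, stood out in its list, running from 580 through 1780 to 3380 CPM in CFU-E cells and from 0 through 135 to 620 CPM in BFU-E cells, 9.31-fold higher (8.75 to 9.91). Psph and Mthfd2, of serine and one-carbon metabolism, were 3.751-fold and 4.27-fold higher, Shmt1 was 3.70-fold lower and 13 of 18 members were within 2-fold. Of the 18, 3 were at least 2-fold higher and 2 lower, against 5.71% and 31% of all measured genes. With TMM scaling 10 of the 18 were at least 2-fold higher and 1 lower, against 1323 and 1419 of all 9052 genes measured with that scaling. Prdx6, a peroxidase, stood at 4177 against 986 CPM, and Prdx2, the main peroxiredoxin of red cells, at 1140.1 against 532 CPM. Hspa8, the constitutive HSP70 chaperone, stood at 17327 against 5180 CPM.

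Of 10 genes of later erythroblasts, several of them in the lists above, 9 stood 2-fold or more higher in CFU-E cells, against 5.71% of all measured genes. Among them Hba-a1, Hbb-bt, Slc4a1 and Epb42 stood below 5 CPM in BFU-E cells and reached the measured minimum only through CFU-E cells. The sum of the 10 ran from 190 through 1115 to 11550 CPM per CFU-E cell against 0 through 125 to 860 CPM per BFU-E cell. Smaller lists held few differences. Of 22 measured cholesterol synthesis genes 20 were within 2-fold, with Hmgcs1, an early step, at 21.5 against 76.4 CPM and Fdft1, the squalene synthase, at 66.7 against 29.1 CPM. Among 25 autophagy genes 2 were higher and 6 lower (4 and 2 with TMM scaling), against 5.71% and 31% of all measured genes. The lower share was thus below that of all genes. Wipi1, which marks forming autophagosomes, stood at 62.4 against 10.7 CPM, while the cargo receptors Optn and Sqstm1 stood at 58.95 and 94.3 CPM against 193 and 260 CPM. Bcl2l11, the death-promoting BIM of the BCL2 family, stood at 30.9 against 7.86 CPM. Of 9 measured mitochondrially encoded genes 1 was at least 2-fold higher, 3 were lower and 5 within 2-fold. Of all measured genes 5.71% were higher and 31% lower, so the lower share was near that of all genes. The gene mt-Nd5, a chain of complex I, stood at 1227 against 2862 CPM but was within 2-fold with TMM scaling (log2 fold −0.63). The median log2 fold of the list was −0.16 and turned to 0.44 with TMM scaling.

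Markers of other cell types were checked in both groups. The 16 granulocyte and monocyte markers summed to 0 through 35 to 6520 CPM per BFU-E cell, 0 to 40 CPM per CFU-E cell and 90 through 4615 to 18350 CPM per left-out BFU-E-plate cell. All 5 measured ones were at least 2-fold lower in CFU-E cells, against 31% of all measured genes. Of the kept BFU-E cells, 2 (12 and 54) held at least 3 of the 16 at 10 or more counts. Mpo stood at 252 CPM in BFU-E cells and at 53.7 CPM without the 4 cells near the minimum, and it had no count in CFU-E cells. Cd33 and Csf1r stood at 33.6 and 19.5 CPM in BFU-E cells, with 98.4% and 89.9% of the counts from 1 cell, and at 0.577 and 1.92 CPM without those 4 cells. Elane, Ctsg, Cebpe and Ly6c2 had no count in either group. Of 10 mast cell and basophil markers, 7 had no count in either group, and Cpa3 stood at 38.4 CPM in BFU-E cells, with 78.6% from 1 cell, and at 4.81 CPM without the 4 cells. Both groups held few lymphoid and macrophage counts, with sums of 1.51 and 2.79 CPM in CFU-E and 29.6 and 4.82 CPM in BFU-E cells. Hepatocyte transcripts were in both groups and in the left-out cells, with Afp at 90.6, 91.25 and 82.2 CPM and Alb at 46.05, 97.3 and 77.8 CPM. The part of these transcripts in the other results was not tested.

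Leaving the non-erythroid wells out changed which myeloid genes appear in the comparison. Against the whole BFU-E plate, which shares its CFU-E cells with the comparison above, 562 of 9441 measured genes stood 2-fold or more higher (5.95%) and 3073 lower (32.5%). Ccr2, a chemokine receptor of monocytes, stood at 86.3 CPM over the whole BFU-E plate, at 0.536 CPM in its erythroid cells and at 220 CPM in the left-out ones, with no count in CFU-E cells. Ctsg, Clec12a, Ms4a6c and Anxa3, genes of granulocytes and monocytes, stood at 31.8 to 51.3 CPM over the whole plate and had no count in either erythroid group. Other genes stood further apart with the left-out wells removed. Vim stood at 40.4 against 709 CPM over the whole plates and at 0.349 against 794 CPM in erythroid cells, so the CFU-E-plate level came from the 3 left-out wells. Coro1a stood at 28.2 against 514 CPM and at 0.465 against 156 CPM, and Celf2 at 15.1 against 417 CPM and at 0.698 against 299.6 CPM. The 3 left-out CFU-E-plate wells each held at least 3 lymphoid markers. Among the heme synthesis genes 12 of 16 were at least 2-fold higher in either comparison, with medians of 2.18 against erythroid cells and 2.32 against the whole plate. For red cell membrane genes the count was 19 against erythroid cells and 23 against the plate. The erythroid transcription factor list, which holds Trim10, gave 4 and 6.

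Sex-linked transcripts showed both sexes on both plates. Xist, the RNA of the inactive X chromosome, was found without Y-linked counts in 41 CFU-E and 23 BFU-E cells, Y-linked genes without Xist in 34 and 25 cells, and both in 11 and 8 cells. Xist stood at 105 against 342 CPM, while its median over cells was 65 CPM in CFU-E and 10 CPM in BFU-E cells, so the summed level and the median point in opposite directions.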

How the data were processed

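Single cells were sequenced by SmartSeq2 with Nextera XT libraries on a HiSeq 2500, per the labels' protocols. The deposited table holds raw counts per gene and cell, made with STAR 2.4 and featureCounts on GRCm38, per the submitters' processing notes. All other values were computed from these counts. Of the columns, 1 matched no label and was not used, and 1 labelled CFU-E cell was not analysed here. Samples were grouped by plate. Cells were filtered by the 3 minimums given above, thinned to 100000 counts (seed 1) and summed per group, and CPM is counts per 1000000 of that sum. No doublet caller was run. Levels and shares have exact Poisson and Clopper-Pearson 95% intervals, and ratios have exact conditional binomial intervals. With 1 sample a group no test was made. A gene with no count in a group was set against a floor of 3 counts over that group. The members and gene lists were chosen with earlier results of these data known. Named genes were the 15 largest changes each way among genes of at least 20 CPM with a count in at least 50% of the cells of the higher group, the 3 largest of each list, both genes of each pair, the 3 leading markers of each other cell type, and the 10 largest moves each way against the whole-plate comparison, leaving out predicted genes. Other list members are named to describe their list and were chosen after their values were seen. Positions are from GENCODE on GRCm38 and promoters from RefSeq on GRCm38.p6. Some members of the lists and pairs are not reported here. The scripts were tested on simulated data. Versions were Python 3.11.15, numpy 2.4.6, pandas 2.3.3, scipy 1.17.1, R 4.3.3, edgeR 4.0.16 (TMM) and DESeq2 1.42.0 (median of ratios).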

Additional observations from a re-analysis of the deposited data

How the results depend on the processing

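No paired analysis was possible because each group is 1 sample and no test was made, so the replicate numbers that the plates share were not used as a block. The number of genes at least 2-fold higher and lower and the median log2 fold were 1323, 1419 and 0.046 with TMM scaling and 1375, 1378 and 0.072 with median-of-ratios scaling. With library sizes that leave out the 100 most abundant genes, 897 genes were higher and the median was −0.30. The number lower was 4389 with a minimum of 1 CPM and 1502 with 20 CPM, where the median was −0.44 and the lower glucocorticoid and TGF-beta genes numbered 2, since fewer genes were measured. The log2 fold of Ablim1 turned to 0.16 with a 4-gene sum of at least 200, since its BFU-E counts lay in the 4 cells near the minimum, and that of Xist to 2.58 by medians over cells. A sum of at least 50, a count in at least 2 of the 4 genes, and leaving out CFU-E cells with 3 lymphoid markers kept the same cells. Of 195 named genes, 101 moved beyond their counting error with TMM scaling, 102 with median-of-ratios scaling, 83 without the 100 most abundant genes, 129 and 1 reversed by medians over cells, 91 with no erythroid minimum, 53 with a pseudocount of 5, 50 with raw counts summed, 27 and 1 reversed with a sum of at least 200, and 3 without BFU-E cell 75, an alternative chosen after seeing the data. Levels near 1 count per cell, 10 CPM, are limited by depth.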

Other observations

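Some genes stood higher in the erythroid BFU-E cells than in either CFU-E cells or the 36 BFU-E-plate cells left out; they were picked after their values were seen, so no test was made. Of 6772 genes at 20 CPM or more in erythroid BFU-E cells, 47 were at least 4-fold above both. Slc45a3, a membrane transporter, stood at 79.5 CPM, with a count in 36 of 56 cells, against 0 in CFU-E cells and 0.278 CPM in the left-out cells. Parm1 stood at 59.5 CPM against 0 and 3.61 CPM. Car1 stood at 371 CPM against 19.9 and 2.22 CPM, and F2r, the thrombin receptor, at 835 CPM against 103 and 37.2 CPM. Trib2, a pseudokinase, stood at 131 CPM against 9.77 and 2.50 CPM. Counts of these genes were uneven over the BFU-E cells: F2r ran from 0 through a median of 410 to 5390 CPM.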
